A study of Mus musculus with 13 samples.

Results

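Better and less oxygenated arms of 2 mouse breast tumour models were compared for 5-hydroxymethylcytosine (5hmC), all 13 tumours of the series entering. The better oxygenated arms held 7 tumours and the less oxygenated arms 6, assigned by sample label alone. In the Phd2 model, mice 16 weeks old were heterozygous (Phd2+/-, n = 4, better oxygenated) or wild type (PHD2+/+, n = 3, less oxygenated). In the plasmid model, mice 12 weeks old had received by hydrodynamic injection an empty PRRL2 plasmid (n = 3, better oxygenated) or one carrying sFlk1 (n = 3, less oxygenated). All mice were of strain FVB, and all tumours arose in the breast through PyMT, the middle T oncogene of polyoma virus. The labels state that Phd2 heterozygosity restores vessels and oxygen in the tumour and that sFlk1 makes tumours more hypoxic, and oxygen itself was not analysed here. Age and the way oxygen supply was altered differ between models and cannot be told apart, so arms were compared within each model and the 2 differences, better minus less oxygenated, were then averaged with equal weight. Whether the heterozygous allele was constitutive in every cell of the host is not given in the labels.

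5hmC is made from 5-methylcytosine by the TET dioxygenases, which consume molecular oxygen and need iron and alpha-ketoglutarate. It accumulates over the bodies and enhancers of active genes and is scarce in gene-poor DNA. Phd2 (gene Egln1) is a related dioxygenase that hydroxylates HIF alpha subunits so that VHL can mark them for destruction. sFlk1 is a soluble form of the VEGF receptor encoded by Kdr, and binds VEGF away from the endothelium. The measure was tet-assisted bisulfite sequencing (TAB-seq), in which 5hmC is protected by glucosylation, other modified cytosines are oxidised, and bisulfite then converts all but the protected base. The deposited values are the percentage of 5hmC in each 300 kb bin, and differences below are in percentage points of that scale. The sample titles call the sequencing shallow, and its read depth is unknown. In bulk tumour DNA, fewer cells rich in 5hmC and less 5hmC per cell cannot be told apart, and gene expression was not analysed here, so the cell makeup of the tumours was not checked against expressed markers.

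Tumours of the better oxygenated arm held more 5hmC over the genome. The mean over 8019 bins of chromosomes 1 to 19 was 3.05%, 3.29%, 2.91% and 2.63% in the 4 Phd2 heterozygous tumours. It was 2.51%, 2.26% and 2.50% in the 3 wild-type tumours. Every heterozygous tumour thus lay above every wild-type tumour, the fourth heterozygous tumour by the least. With the empty plasmid the values were 2.96%, 2.70% and 2.65%, and with sFlk1 they were 2.45%, 2.56% and 2.60%. The plasmid arms did not overlap either, although the lowest empty-plasmid tumour and the highest sFlk1 tumour were close.

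Group means were 2.97% ± 0.278 (SD, n = 4) for Phd2 heterozygous, 2.42% ± 0.144 (SD, n = 3) for wild type, 2.77% ± 0.163 (SD, n = 3) for empty plasmid and 2.54% ± 0.0775 (SD, n = 3) for sFlk1. The averaged difference was 0.393 percentage points (SE 0.0963), with p = 0.00429 in a two-sided exact permutation test within models over 700 arrangements. Within the Phd2 model the difference was 0.551 points, or 22.8% of the wild-type level (exact permutation p = 0.0571). Within the plasmid model it was 0.235 points, or 9.25% of the sFlk1 level, with an exact permutation p of 0.10, the smallest that 3 against 3 tumours allow. The Phd2 difference exceeded the plasmid difference by 0.316 points, which did not pass an exact permutation test (p = 0.333). On chromosome X, which otherwise enters only an alternative in the closing section, the averaged difference was 0.0869 points (exact permutation p = 0.136), with 0.180 in the Phd2 model and -0.00641 in the plasmid model.

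**Figure D1:**
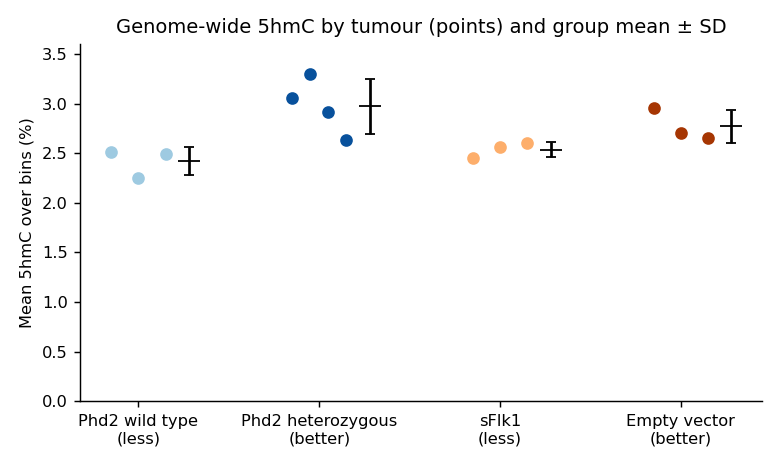
Mean 5hmC in percent over the 8019 kept bins of chromosomes 1 to 19, 1 point per tumour, with the group mean and SD beside each group. All better oxygenated tumours of a model sit above all less oxygenated tumours of the same model.

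The increase was spread over the genome in both models. Bins were averaged into 805 windows of 3 Mb and tested with limma on all 13 tumours. In 625 windows (77.6%), the better oxygenated arm was higher in both models. The exact permutation p of that share, counted in the upper tail only, was 0.00429, and the mean share over all 700 arrangements was 25.2%. A shift in the genome-wide mean of the tumours also moves this share, so its test is not apart from that of the mean. Another 145 windows (18%) were higher in the Phd2 model and lower in the plasmid model, 12 (1.49%) the reverse, and 23 (2.86%) were lower in both. With the Benjamini-Hochberg threshold at 0.05, 277 windows (34.4%) rose in the averaged difference and 0 fell. At an unadjusted p under 0.05, 407 windows were higher and 1 was lower. Of the 277 windows that rose, 276 were higher in both models. Both differences entered the average on which these windows were chosen, so this count is not separate evidence that the models agree. Divided by each tumour's own mean, 210 of 805 windows (26.1%) were higher in both models and 258 (32%) lower in both.

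The number of windows that passed rested on single tumours. Without wild-type tumour 2 it was 6, without empty-plasmid tumour 1 it was 49, and without sFlk1 tumour 1 it was 112. Without Phd2 heterozygous tumour 1, 2 or 4 it was 133, 183 or 451. The share of windows higher in both models stayed between 66.6% and 79.0% when any 1 tumour was left out, with exact permutation p from 0.0025 to 0.00857.

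The arms separated fully, every better above every less oxygenated tumour in each model, in 75 windows (9.32%), and in 0 windows the other way round. Of these 75 windows, 68 also passed limma's threshold. Single tumours differed in how much of the genome followed their arm. Phd2 heterozygous tumours lay above the wild-type mean in 93.8%, 93.4%, 96.8% and 70.9% of windows. Wild-type tumours lay below the heterozygous mean in 92.1%, 94.0% and 93.3%. Empty-plasmid tumours lay above the sFlk1 mean in 84.7%, 65.5% and 61.6% of windows, and sFlk1 tumours below the empty-plasmid mean in 80.8%, 70.2% and 65.6%. The fourth heterozygous tumour and 4 of the 6 plasmid tumours thus followed their arm in fewer windows than the other tumours did.

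In the Phd2 model alone, 236 windows (29.3%) rose and 0 fell. In the plasmid model alone 0 windows (0%) passed limma's threshold, the lowest adjusted p being 0.409, with 69 higher and 5 lower at an unadjusted p under 0.05. The difference between models also passed in 0 windows (0%), with 46 at an unadjusted p under 0.05 and a lowest adjusted p of 0.725. Across the 805 windows, the differences of the 2 models correlated at Pearson r = 0.516 and Spearman rho = 0.520. The models share no tumour, but both differences grew with the 5hmC level of the window (r = 0.827 for Phd2 and 0.545 for the plasmid model). Divided by each tumour's own mean, the 2 differences correlated at r = 0.204. These correlations are over neighbouring windows, which are not independent, and describe the data without a test.

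**Figure D2:**
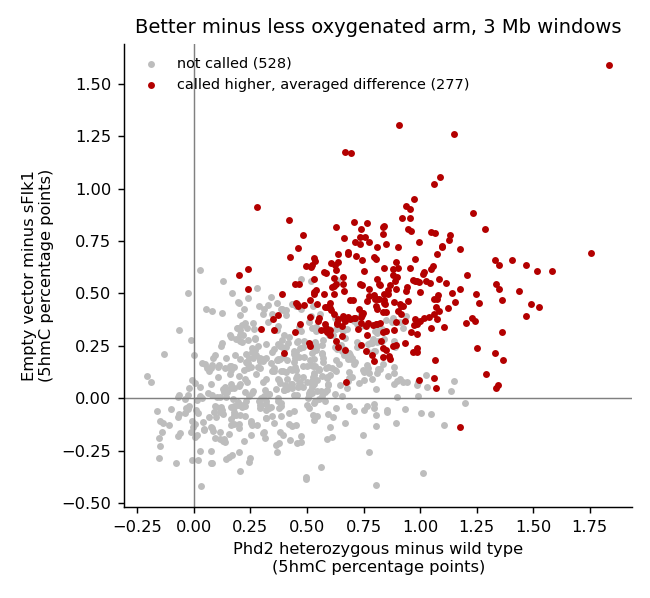
Difference in 5hmC (percentage points) between the better and the less oxygenated arm in 3 Mb windows, Phd2 model on the horizontal and plasmid model on the vertical axis, 1 point per window. Red points are the 277 windows that rose in the averaged difference, and 276 of them lie where both differences are above 0. Both differences entered the average on which the red points were chosen.

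Because the models share no tumour, windows chosen in one could be tested in the other. The 10% of windows with the largest plasmid difference (80 windows, all at or above 0.605 points, the next at 0.603) differed by 0.874 points on average in the Phd2 model, against 0.517 in the remaining 725. All 80 were higher in Phd2 heterozygous tumours, against 95.2% of the rest. The extra 0.357 points had an exact permutation p of 0.0286, the smallest that 35 arrangements allow, and 0.0571 after adjustment over 4 such tests. The 80 windows with the largest Phd2 difference (0.997 points or more, the next at 0.996) differed by 0.460 points in the plasmid model against 0.211 in the rest, and 74 of them were higher with the empty plasmid. That extra of 0.249 points had an exact permutation p of 0.10, the smallest possible there. The chosen windows also held more 5hmC, with a mean level of 3.74% or 4.13% against 2.59% or 2.54%. Relative to each tumour's mean, the extras were 0.0279 in the Phd2 model (exact permutation p = 0.0286, adjusted 0.0571) and 0.0490 in the plasmid model (exact permutation p = 0.10), both as a fraction of the tumour mean. Windows chosen on this scale also held more 5hmC, 3.41% or 3.43% against 2.62%. Every chosen set, on either scale, held the end of chromosome 14, whose value came from 1 short bin, as described below. Its relative differences were 0.55 in the Phd2 and 0.47 in the plasmid model, and the extras were not computed without it.

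DNA rich in 5hmC differed most in percentage points. Bins were split into 5 equal classes by the mean of the 4 group means. In the highest class, from 4.21% up, the means were 6.02% ± 0.595 (SD, n = 4) for heterozygous, 4.73% ± 0.374 (SD, n = 3) for wild type, 5.35% ± 0.334 (SD, n = 3) for empty plasmid and 4.75% ± 0.280 (SD, n = 3) for sFlk1. The averaged difference there was 0.943 points (SE 0.223), with an adjusted exact permutation p of 0.00714 over the 5 classes. It was 0.591 points in the fourth class (adjusted exact permutation p = 0.00714) and 0.342 in the third (adjusted exact permutation p = 0.0238). In the lowest class, up to 0.937%, group means lay between 0.589% and 0.733%, and the averaged difference was -0.0198 points (adjusted exact permutation p = 0.57). In the second class it was 0.107 points (adjusted exact permutation p = 0.164). As a percentage of the less oxygenated arms, the averaged difference was -3.0%, 8.0%, 14.7%, 17.8% and 19.9% from the lowest to the highest class. These percentages were not tested.

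The highest class exceeded the lowest by 0.963 points in the averaged difference (SE 0.228, exact permutation p = 0.00143, the smallest that 700 arrangements allow). Leaving out any 1 tumour kept this contrast between 0.838 and 1.07 points. When the classes used for each model came from the other model's tumours, it was 0.957 points (exact permutation p = 0.00143). A rise by the same fraction at every level would also make this contrast positive, so these tests do not show a larger relative change.

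**Figure D3:**
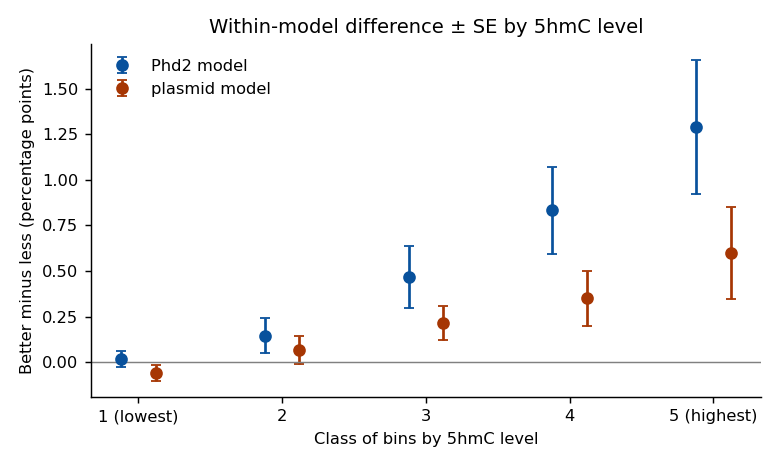
Difference between the better and the less oxygenated arm (percentage points, point and SE) in 5 equal classes of bins by 5hmC level, for the Phd2 and the plasmid model. Differences grow from the lowest to the highest class in both models, to 1.29 and 0.598 points.

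Among windows, the share that rose grew from the lowest to the highest of 5 equal classes by level, at 4.97%, 18.6%, 37.9%, 47.8% and 62.7%. The share higher in both models did not grow at every step, at 39.1%, 75.8%, 89.4%, 87.6% and 96.3%. Of the 23 windows lower in both models, 22 belonged to the lowest class. With windows split into 5 classes by the number of protein-coding genes, 16.2% rose in the class with 0 to 8 genes, and between 36% and 42.9% in the other 4. Set against the window's mean in the less oxygenated arms, the median change was 10.8% in the gene-poorest class and between 14.6% and 16.2% in the other 4. Windows that rose held a median of 21 protein-coding genes at a median 5hmC level of 3.39%, against 18 genes and 2.72% over all windows. The 23 windows lower in both models held a median of 3 genes at a level of 0.790%.

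**Figure D4:**
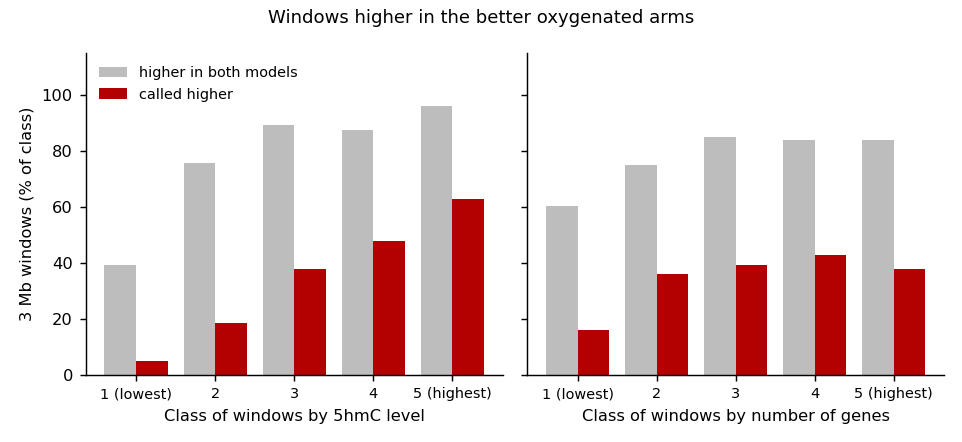
Share of 3 Mb windows (percent of each class) that were higher in both models, in grey, and that rose in the averaged difference, in red, with windows in 5 classes by 5hmC level on the left and by number of protein-coding genes on the right. The red bars run from 4.97% to 62.7% across level classes and from 16.2% to 42.9% across gene number classes.

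Every autosome was higher in the averaged difference, by 0.307 points on chromosome 7 to 0.488 on chromosome 18. Each passed the exact permutation test (adjusted p from 0.00987 to 0.0186 over 19 chromosomes). These tests share the same tumours and the genome-wide difference. Chromosome 5 had the smallest plasmid difference, 0.117 points (exact permutation p = 0.50), with 26 of its 50 windows higher in both models. In the plasmid model, the exact permutation p was 0.30 on chromosomes 1, 11 and 17 and 0.40 on chromosome 7. On chromosome 18 heterozygous tumours held 3.26% ± 0.335 (SD, n = 4), wild-type tumours 2.64% ± 0.183 (SD, n = 3), empty-plasmid tumours 3.03% ± 0.129 (SD, n = 3) and sFlk1 tumours 2.67% ± 0.0361 (SD, n = 3). On chromosome 7 they were 2.52% ± 0.253 (SD, n = 4), 2.07% ± 0.10 (SD, n = 3), 2.32% ± 0.247 (SD, n = 3) and 2.16% ± 0.0548 (SD, n = 3) in the same order of groups. Divided by the tumour mean, 0 of 19 chromosomes passed (lowest adjusted exact permutation p = 0.258), so no chromosome was shown to differ from the genome as a whole. The 277 windows that rose formed 168 runs, and 178 of them stood in 69 runs of at least 2 neighbours. The longest run covered 7 windows on chromosome 10, chr10:15000001-36000000 (GRCm38).

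Windows at genes of quite different roles headed those that rose. The window with the smallest p of those not resting on a single bin was chr18:36000001-39000000 (GRCm38), which holds Cd14, the monocyte co-receptor for lipopolysaccharide, and the clustered protocadherin genes, among 100 protein-coding genes whose models overlap in places. It held 4.10%, 4.94%, 4.21% and 3.92% in Phd2 heterozygous tumours and 3.25%, 2.62% and 3.31% in wild-type tumours. It held 4.01%, 4.00% and 3.53% with the empty plasmid and 3.09%, 2.56% and 3.24% with sFlk1. The arms did not overlap in either model. The averaged difference was 1.06 points (SE 0.223, limma adjusted p = 0.00721). The bin of Cd14 itself did not follow the window in both models, with differences of 1.80 points in the Phd2 and -0.202 in the plasmid model.

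The window chr6:129000001-132000000, which holds Clec12b, an inhibitory lectin receptor of myeloid cells, Klra2, a gene of the Ly49 family of natural killer receptors, and the kinase-like gene Styk1, started from low levels. It held 1.97%, 2.38%, 1.71% and 1.92% in heterozygous tumours against 1.36%, 1.05% and 1.28% in wild type. With the empty plasmid it held 1.88%, 1.66% and 1.55%, and with sFlk1 1.46%, 1.22% and 1.02%. Again the arms did not overlap, with an averaged difference of 0.616 points (SE 0.132, limma adjusted p = 0.00721). The Klra genes of this region are a family of near-identical copies, between which reads can be split or lost.

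At chr10:96000001-99000000, the window of Dcn and Lum, which encode small leucine-rich proteoglycans of connective tissue, and of the calcium pump gene Atp2b1, heterozygous tumours held 4.88%, 5.38%, 4.62% and 4.74%. Wild-type tumours held 3.79%, 3.03% and 3.68% there. The plasmid arms held 4.82%, 4.10% and 3.98% (empty) and 3.62%, 3.43% and 3.88% (sFlk1). These values did not overlap within a model, and the averaged difference was 1.03 points (SE 0.243, limma adjusted p = 0.00896). The bins that hold the 2 proteoglycan genes themselves did not carry this difference evenly, with averaged differences of -0.344 points at Dcn and 0.572 at Lum, neither past the threshold.

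The window of Nfia, a transcription factor of the nuclear factor I family, and of the cell polarity gene Patj, chr4:96000001-99000000, held 4.48%, 4.64%, 3.77% and 3.79% in heterozygous and 3.48%, 2.50% and 3.35% in wild-type tumours. It held 4.87%, 3.65% and 3.98% with the empty plasmid and 2.82%, 3.52% and 3.10% with sFlk1. The plasmid arms came within a small distance of each other but did not overlap (averaged difference 1.04 points, SE 0.240, limma adjusted p = 0.00896). At chr6:15000001-18000000, with the forkhead gene Foxp2 and St7, the ranges were 2.52% to 2.87% in heterozygous, 1.69% to 2.44% in wild-type, 2.63% to 3.12% in empty-plasmid and 1.91% to 2.32% in sFlk1 tumours. The difference there was 0.722 points (SE 0.168, limma adjusted p = 0.00896). These 2 windows and that of Dcn and Lum missed the threshold without wild-type tumour 2 (limma adjusted p = 0.0598 each), with differences of 0.891, 0.635 and 0.914 points.

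The window chr2:78000001-81000000, with Pde1a, a calmodulin-dependent phosphodiesterase gene, Ppp1r1c and Cerkl, ranged from 3.24% to 4.13% in heterozygous tumours and from 2.48% to 2.95% in wild type. The plasmid arms ranged from 3.48% to 3.77% and from 2.81% to 2.95%. Its averaged difference was 0.878 points (SE 0.202, limma adjusted p = 0.00896). At chr18:21000001-24000000, with the dystrobrevin gene Dtna, Ccdc178 and Nol4, heterozygous tumours held 2.64%, 3.28%, 2.56% and 2.59%, and wild-type tumours 2.05%, 2.02% and 2.10%. The plasmid arms ranged from 2.50% to 3.14% and from 1.92% to 2.30% (averaged difference 0.775 points, SE 0.172, limma adjusted p = 0.00896). In all 7 of these windows every better oxygenated tumour lay above every less oxygenated tumour of its model. They were named for the smallest p of the averaged difference, which favours such separation, so it is no further support.

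The smallest p of all windows belonged to the end of chromosome 14, chr14:123000001-124902244, which holds Fgf14, a regulator of sodium channels, and the sodium leak channel gene Nalcn (averaged difference 1.71 points, SE 0.291, limma adjusted p = 0.000361). This value came from the shorter last bin alone, chr14:124800001-124902244, with 25%, 5.26%, 14.3% and 14.3% in heterozygous, 5.88%, 0% and 0% in wild-type, 33.3%, 25% and 20% in empty-plasmid and 5.26%, 20% and 14.3% in sFlk1 tumours. Without that bin the window's averaged difference was -0.141 points (limma adjusted p = 0.242).

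No window fell past the threshold, and the 4 lower in both models with the smallest p held little 5hmC, with 1, 2, 19 and 45 protein-coding genes. At chr12:93000001-96000000, with the membrane protein gene Flrt2, heterozygous tumours held 0.505%, 0.738%, 0.703% and 0.600%, and wild-type tumours 0.555%, 1.21% and 0.608%. With the empty plasmid it held 0.959%, 0.775% and 0.439%, and with sFlk1 1.20%, 1.08% and 0.738%. The arms overlapped in both models (averaged difference -0.220 points, SE 0.109, limma adjusted p = 0.0971). At chr15:18000001-21000000, with the cadherin gene Cdh10, the ranges were 0.382% to 0.622% in heterozygous, 0.531% to 0.686% in wild-type, 0.515% to 0.757% in empty-plasmid and 0.502% to 1.18% in sFlk1 tumours, which also overlapped (averaged difference -0.189 points, SE 0.0962, limma adjusted p = 0.107). Without sFlk1 tumour 3, both these windows passed the threshold, at -0.287 (limma adjusted p = 0.0476) and -0.282 points (limma adjusted p = 0.0300). The window of Adgre1, which encodes the macrophage antigen F4/80, and Vav1, a signalling gene of blood cells, chr17:57000001-60000000, differed by -0.193 points (SE 0.112, limma adjusted p = 0.150). A window of predicted genes at chr14:3000001-6000000 differed by -0.172 points (SE 0.116, limma adjusted p = 0.210) and passed without empty-plasmid tumour 2 (-0.290 points, limma adjusted p = 0.0440).

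**Figure D5:**
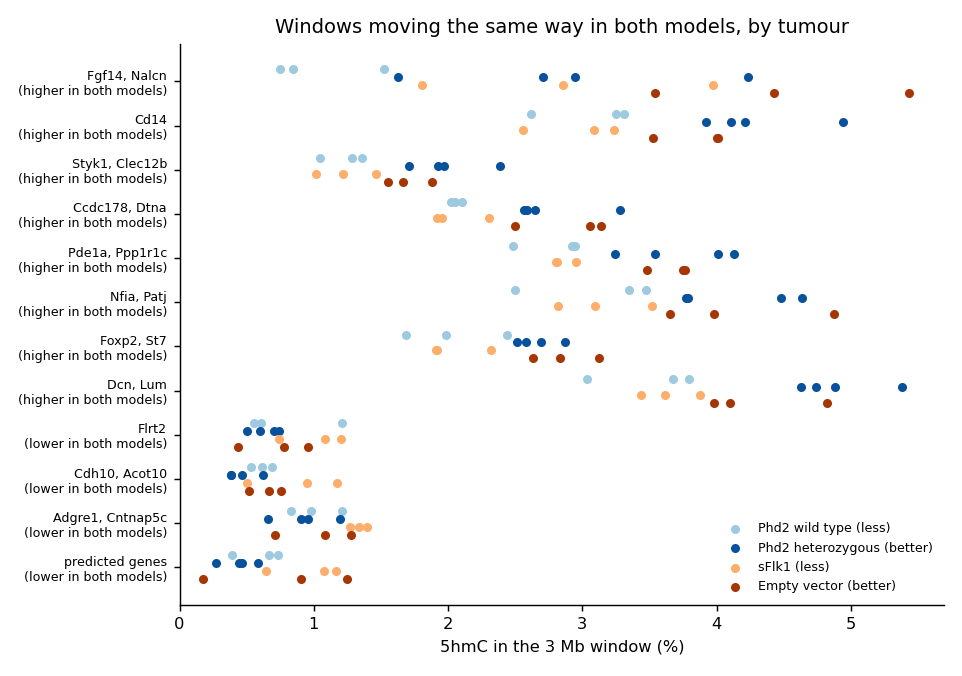
5hmC in percent in each tumour for the 8 windows higher and the 4 windows lower in both models with the smallest p, 1 point per tumour, coloured by group and labelled with genes of the window. Apart from the top row, dark points (better oxygenated) of a model lie above the pale points of the same model in the windows marked higher, while in the 4 windows marked lower all values are under 1.5% and the arms overlap.

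At the resolution of the deposited table, single bins showed larger differences, but none passed the threshold. Of 8019 bins, 0 (0%) passed limma's threshold (lowest adjusted p = 0.150), with 1010 higher and 85 lower at an unadjusted p under 0.05. The better oxygenated arm was higher in both models in 3847 bins (48%) and lower in both in 926 (11.5%). Arms separated fully in 102 bins (1.27%), and in the opposite direction in 5. The bin of Aftph and Lgalsl, chr11:20700001-21000000, had the smallest p of those higher in both models. It held 6.99%, 7.25%, 6.57% and 6.21% in heterozygous and 4.93%, 4.6% and 5.57% in wild-type tumours. It held 8.95%, 8.21% and 6.45% with the empty plasmid and 4.62%, 2.90% and 4.22% with sFlk1 (averaged difference 2.84 points, SE 0.604). The arms did not overlap there.

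The bin of Atp2c2, a calcium pump of the secretory pathway, and the deubiquitinase gene Usp10, chr8:119700001-120000000, held 6.85% to 8.77% in heterozygous and 3.94% to 6.36% in wild-type tumours. It held 6.17% to 9.09% with the empty plasmid and 3.79% to 4.99% with sFlk1 (averaged difference 2.89 points, SE 0.669). The bin chr1:89400001-89700000 holds a single protein-coding gene, Agap1, which encodes a GTPase-activating protein for Arf. It held 6.29%, 9.35%, 5.86% and 8.32% in heterozygous and 4.64%, 4.49% and 5.56% in wild-type tumours, and 6.94%, 7.0% and 8.04% with the empty plasmid against 3.10%, 3.93% and 5.53% with sFlk1. Neither bin showed an overlap of arms (averaged difference at Agap1 2.85 points, SE 0.670). The bin of Dock1, a Rac activator, chr7:134700001-135000000, differed by 2.20 points (SE 0.521), and that of Ankrd22, chr19:33900001-34200000, by 2.51 points (SE 0.594). Bins without a protein-coding gene at chr14:11400001-11700000 and chr4:81900001-82200000 differed by 2.60 (SE 0.599) and 2.79 points (SE 0.670). All bins in this paragraph had a limma adjusted p of 0.150. Like the windows, they were named for a small p, which favours arms that do not overlap.

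Lower in both models with the smallest p was a bin without a protein-coding gene, chr1:47700001-48000000. It held 0.363% to 0.730% in heterozygous and 0.368% to 1.83% in wild-type tumours, and 0.197% to 0.911% with the empty plasmid against 2.10% to 2.73% with sFlk1 (averaged difference -1.21 points, SE 0.271, limma adjusted p = 0.150). Only the plasmid arms were apart there. In another bin without such a gene, chr12:10800001-11100000, both models' arms were apart, in the plasmid model by less than the rounding shows, at 0.337% to 0.83% against 1.44% to 2.30% in the Phd2 model and 0.560% to 1.09% against 1.09% to 3.21% in the plasmid model (averaged difference -1.19 points, SE 0.317, limma adjusted p = 0.152). The bin of predicted genes at chr14:4500001-4800000 was at 0 in 10 of 13 tumours, and its averaged difference of -1.19 points (SE 0.350, limma adjusted p = 0.195) came mainly from 3.90% and 2.74% in sFlk1 tumours 2 and 3. A bin without a protein-coding gene at chr8:89100001-89400000 differed by -0.707 points (SE 0.226, limma adjusted p = 0.213).

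Promoters held 16.8 CG on average in the windows that rose, 15 in those that did not pass, 15.7 over all windows and 9.61 in the 23 windows lower in both models, which was not tested. To show promoters of high, middle and low CG content, those of 3 genes are printed, chosen after their values were seen and not as typical of their regions, none of which passed the threshold. They are Agap1, the only gene of a bin named above, Gata3, the listed gene with the smallest p, and Cdh10, from a window lower in both models. Each is 300 bases, 250 before to 50 after the annotated start, from RefSeq on GRCm38.p6, with every CG in capitals, since CG is where 5hmC mainly arises.
Agap1, chr1:89454561-89454860, plus strand: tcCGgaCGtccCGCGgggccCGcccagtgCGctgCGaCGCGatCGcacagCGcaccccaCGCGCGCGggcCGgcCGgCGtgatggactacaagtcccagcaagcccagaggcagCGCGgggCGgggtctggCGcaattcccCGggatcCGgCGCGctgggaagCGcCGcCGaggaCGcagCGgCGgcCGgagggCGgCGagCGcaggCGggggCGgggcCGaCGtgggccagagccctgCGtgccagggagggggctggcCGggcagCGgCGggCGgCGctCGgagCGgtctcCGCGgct
Gata3, chr2:9878551-9878850, minus strand: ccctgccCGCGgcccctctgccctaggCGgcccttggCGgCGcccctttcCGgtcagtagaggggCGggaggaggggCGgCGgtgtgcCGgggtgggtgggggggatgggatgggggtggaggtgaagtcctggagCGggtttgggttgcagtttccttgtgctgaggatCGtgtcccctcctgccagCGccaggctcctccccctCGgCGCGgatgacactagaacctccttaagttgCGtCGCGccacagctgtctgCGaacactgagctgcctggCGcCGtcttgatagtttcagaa
Cdh10, chr15:18820079-18820378, plus strand: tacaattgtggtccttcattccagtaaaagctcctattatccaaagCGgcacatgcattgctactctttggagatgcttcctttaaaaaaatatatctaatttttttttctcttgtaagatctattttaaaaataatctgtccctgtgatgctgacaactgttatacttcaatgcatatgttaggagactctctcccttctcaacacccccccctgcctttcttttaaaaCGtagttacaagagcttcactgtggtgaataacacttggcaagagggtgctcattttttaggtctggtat
The Agap1 promoter holds 50 CG, the Gata3 promoter 22 and the Cdh10 promoter 2. CG reads the same on both strands. Of 16457 promoters of protein-coding genes, 95.0% hold at least 1 CG, the median is 14, and 1.13% hold 50 or more, 32.6% 22 or more and 18.6% 2 or fewer. A bin of 300 kb does not resolve a promoter, so these sequences show the setting and not where in the bin the 5hmC lay.

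Genes of known roles were read through the bins that hold most of their bodies. Counts below are of genes, and some genes share a bin. None of the bins of 140 listed genes passed the threshold or had fully separate arms, where 0% and 1.27% of all bins did. At an unadjusted p under 0.05, 13 of the 140 passed, 12 higher and 1 lower, against 13.7% of all bins. The better oxygenated arm was higher in both models for 72 of the 140 genes (51.4%), against 48% of all bins. It was lower in both for 9 genes, against 11.5% of all bins. The median averaged difference of the 140 genes was 0.489 points at a median level of 3.62%, against 0.295 points and 2.49% over all bins. Bins of the fourth of the 5 level classes also had a median level of 3.62%. Of these bins, 61.1% were higher in both models, with a median averaged difference of 0.58 points. The listed genes were thus not above bins of a like level. From the lowest to the highest level class, the share higher in both models was 22.3%, 36.1%, 50.3%, 61.1% and 70.1%. The 48% of all bins set beside each list below is thus not matched for level. By median level, Polycomb target genes fell in the second class and fibroblast genes in the third. Hypoxia-inducible, oxygen sensing and housekeeping genes fell in the highest, and the other lists in the fourth. No list was tested against its class.

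Of genes of oxygen sensing, which mark, bind or form the HIF transcription factors, 4 of 9 (44.4%, all bins 48%) were higher in both models. None was lower in both (median averaged difference 0.791 points). The bin of Egln1, the gene that encodes Phd2, held 6.37%, 8.26%, 4.92% and 2.58% in heterozygous and 4.80%, 2.94% and 5.30% in wild-type tumours. It held 7.91%, 3.97% and 4.65% with the empty plasmid and 3.39%, 4.16% and 3.62% with sFlk1. Arms overlapped in both models (averaged difference 1.49 points, SE 0.743, limma adjusted p = 0.378). At Egln3, which encodes another HIF prolyl hydroxylase, the models differed in direction. The Phd2 arms lay close together, with 2.96% to 5.27% against 2.92% to 4.78%. With the empty plasmid the bin held 4.78%, 5.07% and 4.61%, and with sFlk1 5.76%, 7.85% and 8.24%, without overlap. The difference was 0.0665 points in the Phd2 and -2.46 in the plasmid model, but neither the average (-1.20 points, SE 0.586, limma adjusted p = 0.366) nor the difference between models (limma adjusted p = 0.937) passed.

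Among 18 hypoxia-inducible genes, whose transcription HIF raises, 7 (38.9%, all bins 48%) were higher and 2 lower in both models. The median difference was 0.903 points in the Phd2 model and -0.0954 in the plasmid model, against 0.411 and 0.162 over all bins. Ero1a, which encodes an oxidase of the endoplasmic reticulum, held 8.14%, 7.31%, 7.87% and 8.50% in heterozygous and 6.18%, 5.72% and 5.32% in wild-type tumours. The plasmid arms overlapped, with 7.56%, 5.35% and 6.41% against 5.64%, 6.05% and 6.22% (averaged difference 1.34 points, SE 0.631, limma adjusted p = 0.348). Pfkfb4, a regulator of glycolysis, had the opposite pattern. Its Phd2 arms overlapped (2.33% to 4.18% against 1.94% to 5.14%), and its plasmid arms did not (3.54% to 4.48% against 2.36% to 2.55%), for an averaged difference of 1.03 points (SE 0.516, limma adjusted p = 0.378).

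Of 13 genes that write, oxidise or remove cytosine modifications, 7 (54%, all bins 48%) were higher and 1 lower in both models (median 0.490 points). The bin of Tet3 held 5.59%, 7.36%, 5.38% and 5.68% in heterozygous and 3.38%, 3.08% and 4.07% in wild-type tumours, without overlap. The plasmid arms overlapped there, at 5.41%, 4.62% and 4.92% against 4.63%, 3.04% and 6.17% (averaged difference 1.43 points, SE 0.564, limma adjusted p = 0.281). Tet1 differed by 0.842 points (SE 0.516, limma adjusted p = 0.472) and Tet2 by 0.291 (SE 0.522, limma adjusted p = 0.83). Dnmt3l, a cofactor of the de novo methyltransferases, differed by 0.875 points. These are levels of 5hmC at the genes and not levels of the enzymes.

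Lists of cell type genes describe 5hmC at those genes and were not tested as signs of cell makeup. Of 14 luminal epithelial genes, 8 (57.1%, all bins 48%) were higher and 1 lower in both models (median 0.555 points). Some of those higher in both share a bin, whose values are thus counted again. The bin of Gata3, the transcription factor of luminal cells, held 7.91%, 7.75%, 4.95% and 8.01% in heterozygous and 4.96%, 3.25% and 4.61% in wild-type tumours. It held 6.13%, 8.10% and 6.47% with the empty plasmid and 5.01%, 5.11% and 5.32% with sFlk1. Only the third heterozygous tumour reached into the other arm (averaged difference 2.32 points, SE 0.643, limma adjusted p = 0.159). The milk protein gene Csn2 differed by 1.27 points. Of 8 basal epithelial genes, 4 (50%, all bins 48%) were higher and 1 lower in both models. The difference was 1.92 points at Tagln (SE 0.680, limma adjusted p = 0.245), a contractile gene. It was 1.17 at Mylk, the gene of myosin light chain kinase (SE 0.663, limma adjusted p = 0.441).

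Of 14 endothelial genes, 8 (57.1%, all bins 48%) were higher and 1 lower in both models (median 0.390 points). Esam, an endothelial adhesion molecule, held 2.95%, 2.75%, 3.86% and 2.78% in heterozygous and 1.58%, 0.684% and 1.60% in wild-type tumours, without overlap. Its plasmid arms overlapped, at 2.82%, 1.47% and 1.43% against 1.98%, 1.37% and 1.43% (averaged difference 1.06 points, SE 0.377, limma adjusted p = 0.246). Eng, an endothelial co-receptor for TGF-beta, differed by 1.27 points (SE 0.589, limma adjusted p = 0.344). Of 11 immune genes, 5 (45%, all bins 48%) were higher and 2 lower in both models. Their medians were 0.452 points in the Phd2 and -0.0486 in the plasmid model. The integrin gene Itgam, higher in both, differed by 1.20 points (SE 0.637, limma adjusted p = 0.405). Cd14, whose models went opposite ways, differed by 0.797 on average. Of 9 fibroblast genes, 3 (33.3%, all bins 48%) were higher and 0 lower in both. Their medians were 0.449 points in the Phd2 and -0.462 in the plasmid model. The largest values there were 0.572 points at Lum and 0.529 at Fap, a protease gene of activated fibroblasts.

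Of 17 tumour suppressor genes, 9 (52.9%, all bins 48%) were higher and 0 lower in both models (median 0.508 points). The bin of Nf1, a negative regulator of Ras, was among the richest in 5hmC, with 8.28%, 12.6%, 7.75% and 8.78% in heterozygous and 5.69%, 4.70% and 8.34% in wild-type tumours. It held 10.8%, 6.91% and 8.37% with the empty plasmid and 6.12%, 5.69% and 9.01% with sFlk1. Arms overlapped in both models (averaged difference 2.43 points, SE 0.956, limma adjusted p = 0.281). Of 16 Polycomb target genes, developmental regulators silent in most tissues, 7 (44%, all bins 48%) were higher and 1 lower in both. Their median was 0.0308 points at a median level of 1.69%. Pax2 differed by 0.576 points (SE 0.324, limma adjusted p = 0.436) and Lhx1 by 0.521. Of 11 housekeeping genes, 10 (90.9%, all bins 48%) were higher and 0 lower in both models (median 0.789 points at a median level of 4.34%). The difference was 1.51 points at the proteasome gene Psmb4 (SE 0.580, limma adjusted p = 0.281) and 1.29 at B2m (SE 0.535, limma adjusted p = 0.291).

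Models were also compared window by window, and 0 windows passed the test of a difference between them. The window with the smallest p of that test, chr5:75000001-78000000, holds Pdgfra, a receptor of mesenchymal cells, and Kdr, the gene of the receptor from which sFlk1 derives. It held 4.01%, 4.43%, 3.61% and 3.65% in heterozygous and 2.90%, 3.04% and 2.80% in wild-type tumours, without overlap. In the plasmid model the order was turned, at 3.31%, 3.27% and 2.81% with the empty plasmid against 3.38%, 3.33% and 3.76% with sFlk1. The differences were 1.01 and -0.358 points, and their contrast was 1.37 points (SE 0.414, limma adjusted p = 0.725). At chr1:33000001-36000000, with Dst, a cytoskeletal linker gene, the differences were 1.18 and -0.136 points (limma adjusted p of their contrast 0.725). This was the only one of the 277 windows that rose without being higher in both models. At chr8:51000001-54000000, with Neil3, a DNA glycosylase gene, they were 0.455 and -0.212 points (limma adjusted p of their contrast 0.725).

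Once each tumour's own mean was divided out, few windows passed limma's threshold. Differences on this scale still correlated with the level of the window on the same scale, at r = 0.283 in the Phd2 and 0.261 in the plasmid model. These correlations were not tested. A single window (0.124%) passed limma's threshold, the end of chromosome 14 described above, and it did not pass without the last bin of the chromosome. At an unadjusted p under 0.05, 22 windows were higher and 37 lower relative to the tumour mean. Subtracting the mean in place of dividing left 40 windows past the threshold, 11 higher and 29 lower.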

How the data were processed

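The authors deposited 1 table of 5hmC percentages in 9097 bins of 300 kb, 1 column for each of 13 tumours, in percent. Per the labels' protocols, DNA of flash-frozen tumours was extracted in the presence of DFO, an iron chelator (200 µM), TAB-converted and treated with bisulfite. Bismark 0.13.1 and mm9 appear, with no role, in the submitters' processing notes. The pooling of calls within bins, a minimum of coverage and the rates of conversion were not given in the sources used here. Depth is therefore unknown, and unconverted cytosine was not subtracted. Bins end at GRCm38 lengths (chromosome 1 at 195471971), so coordinates are GRCm38 and genes were placed with RefSeq GRCm38.p6. As a check, gene density followed 5hmC best with no shift on 15 of 19 chromosomes, over shifts of up to 10 bins.

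Of 8219 bins on chromosomes 1 to 19, the 200 at 0 in all tumours were left out. Windows of 3 Mb needed at least 5 kept bins. A gene was placed in the bin with most of its body, and all 140 genes of 11 lists matched. limma 3.58.1 (R 4.3.3) was fitted to percentages with 4 group means and a trend, with Benjamini-Hochberg adjustment at 0.05 over all windows or bins. The fit was also run on simulated windows with noise drawn independently for each window. That run does not show how calls behave where windows share a shift of the whole tumour. limma assumes a shared spread and nearly normal values. Single values were tested by two-sided exact permutation within models. The share of windows higher in both models cannot be negative, so its permutation p counts the upper tail only. For the difference between models, that permutation's null is no effect in either model. The titles number the mouse of each tumour within its group, and tumours were taken as separate animals. Replicate numbers were not used to pair tumours in the main tests. Same-numbered tumours of the 2 arms correlated at -0.258 to 0.0752, but 6 pairs are too few to exclude a pairing. The comparisons, members and gene lists were chosen with earlier results of these data known. Named were the 8 windows higher and 4 lower in both models and the 3 with the smallest p of the difference between models, the 8 bins higher and 4 lower with the smallest p, the 2 genes of each list with the smallest p, and Tet1, Tet2 and Tet3. In a region, listed genes and the longest genes were named. Some genes that this rule takes are not reported here. Alternatives were other window sizes, scales, weights, bin filters, scalings, a replicate block and each tumour left out.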

Additional observations from a re-analysis of the deposited data

Results flagged for a closer look

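In the window of Dtna, Ccdc178 and Nol4 (chr18:21000001-24000000), the value of Phd2 heterozygous tumour 2, 3.28%, stood apart from the other 3 heterozygous tumours, which held 2.56% to 2.64%. Its gap to the nearest of them was 0.887 of the group's range. This was the only such value in 34 groups of 4 tumours examined, where chance alone sets about 1 in 20 groups apart. The averaged difference of that window stayed past the threshold when this tumour was left out.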

How the results depend on the processing

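The genome-wide difference kept its direction and passed the exact permutation test in every alternative run, from 0.328 (medians) to 0.450 points, the share of windows higher in both models likewise, and all 19 chromosomes passed whichever tumour was left out. Leaving out 1 tumour moved the number of windows that passed to between 6 and 451, of bins to between 0 and 1, and of windows relative to the tumour mean to between 0 and 3. With 1.5 Mb windows, 160 of 1602 passed (159 higher, 1 lower), and with the replicate block, to which the fourth heterozygous tumour, having no partner, adds nothing, 329 of the 3 Mb windows did and the genome-wide difference was 0.450 points. In single bins, adding chromosome X, a log2 scale and an arcsine scale each gave 1 call. Relative to the tumour mean, 0 windows passed with 1.5 Mb windows, with bins above 0 in all tumours alone, or without the last bin of each chromosome, and 40 passed with subtraction of the mean. Leaving out the last bins, an alternative added after the data were seen, gave 289 windows in the averaged difference and turned the window at the end of chromosome 14 to -0.141 points, since its value rests on that bin. The cause of the other changes was not tested. Of the named regions under these alternatives, 509 values kept their direction and side of the threshold, 3 lost and 7 gained it. With unknown depth, a 0 in a bin cannot be told from a bin without data, and counting error cannot be given.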
